A study of Mus musculus with 2 samples.

Results

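The genes described here make cholesterol and fatty acids, together with 4 genes that sense, regulate or move sterols. They were chosen by name, as a list of 33 gene symbols of the 32285 genes in the deposited matrix. The list holds 8 genes of the mevalonate steps, 11 genes of the sterol steps from squalene onwards, 4 genes of regulation and transport, and 10 genes of fatty acid synthesis, desaturation and elongation. All 33 had UMIs (unique molecular identifiers, the count of captured RNA molecules) in each of the 3 groups of cells set apart by source.

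Cells build cholesterol from acetyl-CoA through mevalonate, isoprenoid units and squalene, and they build fatty acids from the same acetyl-CoA through malonyl-CoA. Transcription of both routes is driven by the SREBP factors, which stay in the endoplasmic reticulum while sterols are plentiful and move to the nucleus when sterols run low. SREBP2, encoded by Srebf2, acts mainly on sterol genes and SREBP1, encoded by Srebf1, mainly on fatty acid genes, and both act together with the factor NF-Y on many target promoters.

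The cells were B16F10, a mouse melanoma line, recovered from 3 sources: wild-type (WT) lung, Prf1-/- lung and, labelled as bone, the knee of Prf1-/- hosts. Prf1 encodes perforin, which cytotoxic lymphocytes use to open pores in target cells, so the difference in genotype lay in the host and not in the tumour cell. Digestion at 37 °C took 20 min for lung and 30 min for knee and cannot be told apart from the site; GFP+CD45-DAPI- cells were then sorted, marked with 1 of 3 hashtag antibodies and pooled into 1 droplet run. The labels give no number of mice and each condition was a single hashtag group, so differences were described and not tested. The 95% intervals cover counting error alone, and the spread between mice or cells is not in them.

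After filtering, 9644 barcodes remained. The hashtags placed 1227 of them from the WT lung source (3865546 UMIs), 1520 from the Prf1-/- lung source (4726709 UMIs) and 385 from the Prf1-/- bone source (1299480 UMIs), with medians of 2909, 2826.5 and 3107 UMIs per cell. A further 242 were ambiguous, and 6270 had a barcode that was not listed in the hashtag matrix, where the smallest total was 503 counts. All 8 melanoma markers were detected in each of the 3 groups, with summed levels of 12994, 13287 and 10125 CPM (a gene's UMIs over all UMIs of the group, scaled to 1e+06). Markers of other cell types summed to at most 20.4 CPM per list in any hashtag group, except that lung epithelial markers gave 205 CPM for WT lung against 13.5 for Prf1-/- lung and 19.2 for bone. Epcam, a defining epithelial marker, was at 0 in all 3, and 9, 6 and 3 of the 10 epithelial markers had a UMI.

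From cell to cell, most members went together. For each gene, cells thinned to 2000 UMIs were ranked by the summed UMIs of 21 sterol genes (the mevalonate and sterol members with Insig1 and Stard4), leaving that gene out, and its UMIs in the upper 25% of cells, termed sterol-high, were set against those in the lower 25%, termed sterol-low. Each class held 2024 cells, with 4 to 17 sterol UMIs per cell in the sterol-high and 0 or 1 in the sterol-low. Genes counted as higher or lower had a ratio past 1.5-fold and reached 20 CPM as a mean over both groups, here and in each comparison that follows. Of the 21 genes of the score 17 reached that level and 15 were higher, and of the 12 members outside the score 9 reached it and 8 were higher, while 1.46% of all genes tested were higher and 2.11% lower. The median log2 ratio was 1.90 for the score members and 0.96 for those outside it, against -0.02 over all genes tested. Of the members counted, 5 (Fdft1, Nsdhl, Sc5d, Fads2 and Elovl6) reached 20 CPM only through the sterol-high cells and so had to differ, and the counts and medians are no support in themselves. The ratios are a description: the cells share 1 library, and each cell holds few UMIs of any member.

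Among the mevalonate genes, Hmgcs1, the synthase that makes HMG-CoA, stood at 140 CPM in sterol-high and 32.4 in sterol-low cells, 4.32-fold higher (3.57 to 5.27). Idi1, which converts isopentenyl diphosphate to its isomer, was 4.28-fold higher (3.55 to 5.19), at 147 against 34.3 CPM. Mvd, the mevalonate diphosphate decarboxylase, was 3.73-fold higher (3.03 to 4.64), and Fdps, which makes farnesyl diphosphate, 3.21-fold higher (2.95 to 3.5). The kinases Mvk and Pmvk and the acetoacetyl-CoA thiolase Acat2 were also higher, at 2.74, 2.57 and 3.29-fold. Ggps1, which takes farnesyl diphosphate into the geranylgeranyl branch away from sterols, was the exception, with 24.0 against 26.2 CPM and a ratio of 0.915 (0.688 to 1.22).

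Of the 8 sterol genes that reached 20 CPM, 7 were higher, and Nsdhl, Sc5d and Fdft1 of these reached it through sterol-high cells alone. Nsdhl, a sterol dehydrogenase, was 4.37-fold higher (3.26 to 5.93), Sc5d, the sterol desaturase, 4.13-fold (2.98 to 5.83) and Sqle, the squalene epoxidase, 3.96-fold (3.14 to 5.02). Msmo1, the methylsterol oxidase, stood at 200 against 51.6 CPM, Fdft1, the squalene synthase, at 71.4 against 18.8, Cyp51, the lanosterol demethylase, at 260 against 74.9, and Dhcr7, the last reductase, at 61.3 against 21.7. Ebp, the sterol isomerase, did not reach the threshold, with 167 against 123 CPM and a ratio of 1.36 (1.21 to 1.53). Lss, Hsd17b7 and Tm7sf2 were under 20 CPM and had ratios of 4.48, 2.43 and 2.61. The gene of squalene synthase overlaps Ctsb, a cathepsin gene at 362 CPM, by 774 bases in the RefSeq annotation, and reads of the pair cannot be told apart, as the counting strand was not given.

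The regulators differed among themselves. Insig1, which holds the SREBP complex in the endoplasmic reticulum and is itself an SREBP target, was 3.85-fold higher (3.05 to 4.90), and Stard4, a sterol carrier under 20 CPM, had a ratio of 4.3 (2.87 to 6.63). Srebf2, which was not in the score, was 1.68-fold higher (1.35 to 2.11), at 54.1 against 32.1 CPM. Srebf1, also not in the score and under 20 CPM, had 46 UMIs in sterol-high and 51 in sterol-low cells, a ratio of 0.902 (0.592 to 1.37).

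The fatty acid genes, none of which entered the score, followed with smaller ratios, and 7 of the 8 that reached 20 CPM were higher, Fads2 and Elovl6 reaching it through sterol-high cells alone. Fads2, a front-end fatty acid desaturase, was 2.72-fold higher (1.98 to 3.79). Scd2 and Scd1, the stearoyl-CoA desaturases, were 2.12-fold (1.90 to 2.36) and 2.04-fold (1.55 to 2.69) higher. Acly, which supplies cytosolic acetyl-CoA, Elovl6, an elongase, Fads1, the partner desaturase, and Fasn, the fatty acid synthase, were 1.95, 1.94, 1.72 and 1.57-fold higher. Acaca, the acetyl-CoA carboxylase that makes malonyl-CoA, did not differ beyond counting error, with 34.8 against 34.1 CPM and a ratio of 1.02 (0.802 to 1.30). Elovl5 and Acss2, under 20 CPM, had ratios of 1.32 (0.911 to 1.92) and 2.07 (1.06 to 4.24). Summed over the 10 genes, the ratio was 1.84 (1.73 to 1.97) over all cells, 2.03 (1.68 to 2.47) in WT lung, 1.89 (1.62 to 2.20) in Prf1-/- lung, 1.82 (1.32 to 2.53) in bone and 1.81 (1.67 to 1.97) in cells not listed in the hashtag matrix. When the score was taken from the 10 fatty acid genes instead, the summed sterol genes had a ratio of 1.62 (1.56 to 1.68).

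**Figure D1:**
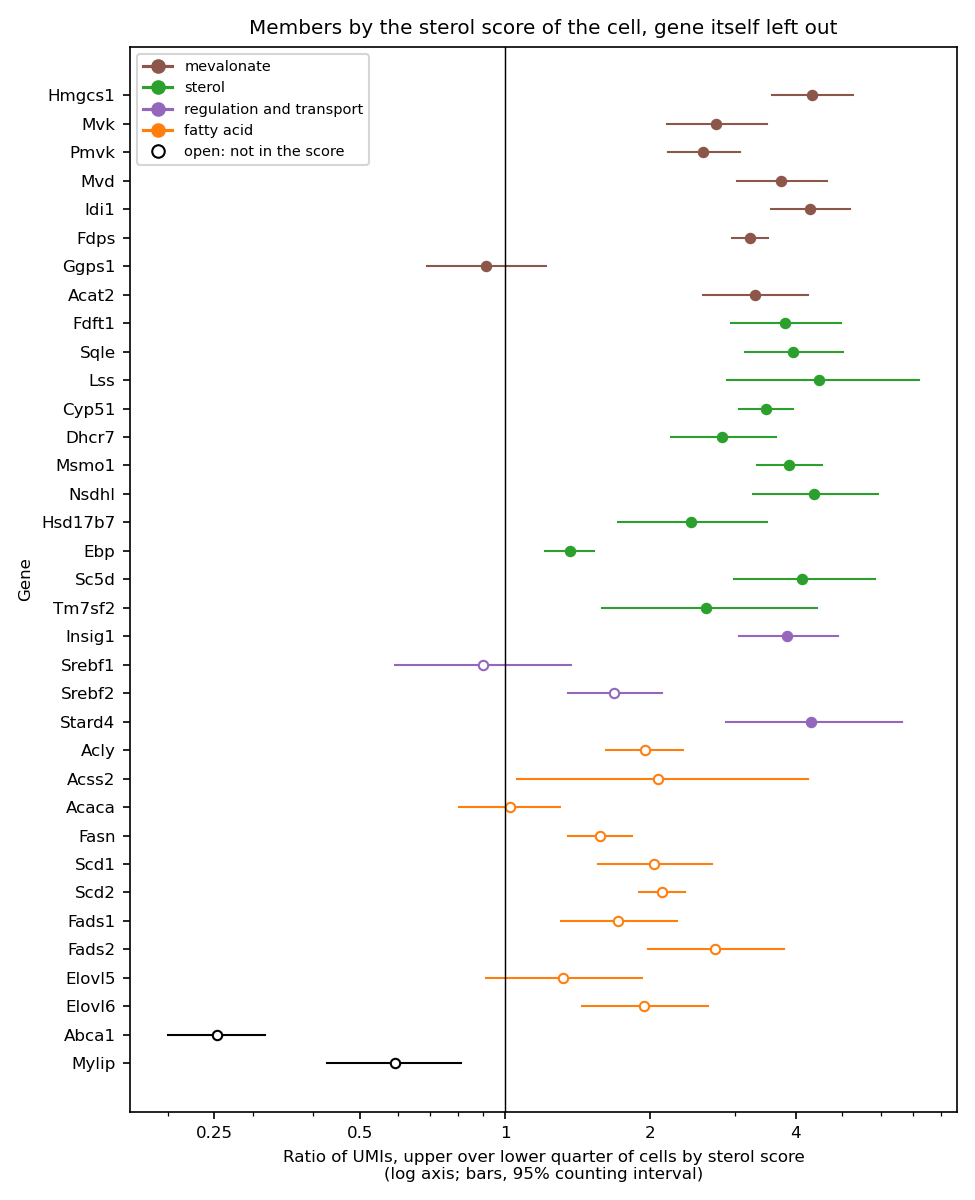
Ratio of UMIs between the upper and the lower 25% of cells by sterol score, with the plotted gene left out of its own score (log axis). Points are genes coloured by role, bars are 95% counting intervals, and open points are genes outside the score. Apart from Ggps1 and Ebp the genes of the score lie at 2.43 or above, the fatty acid genes lie between 1.02 and 2.72, and Abca1 lies at 0.253.

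Other genes of the 2 pathways that are not members were taken from fixed lists. Of 24 further sterol genes 14 reached 20 CPM, none was higher and 2 were lower. Abca1, the cholesterol exporter that LXR induces when sterols are plentiful, had 95 UMIs in sterol-high and 375 in sterol-low cells, a ratio of 0.253 (0.200 to 0.318). It was 0.195 (0.107 to 0.336) in WT lung and 0.225 (0.122 to 0.392) in Prf1-/- lung, whereas in bone only 8 and 4 UMIs were counted. Mylip, the ligase that LXR induces to degrade lipoprotein receptors, had a ratio of 0.591 (0.428 to 0.810) and reached 20 CPM through sterol-low cells alone. A fall was not particular to LXR targets. Outside both pathways, S100a6 had a ratio of 0.290 (0.252 to 0.331), Ahnak 0.350, Klf2 0.397 and Nupr1 0.404. Insig2, a relative of Insig1, had a ratio of 0.908 (0.804 to 1.03) and Npc2, a lysosomal cholesterol carrier, 1.27 (1.19 to 1.37). Of 24 further fatty acid genes 12 reached 20 CPM and 2 were higher: Tecr, the enoyl-CoA reductase of elongation, at 1.62-fold (1.5 to 1.76), and Slc25a1, the mitochondrial citrate exporter, at 1.61-fold (1.24 to 2.10).

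Beside these values, the summed S phase list had a ratio of 1.33 (1.27 to 1.38) between the classes and the G2 and M phase list 1.01 (0.977 to 1.05). The latter was not alike by source, at 1.35 (1.20 to 1.51) in WT lung, 1.08 (0.978 to 1.19) in Prf1-/- lung and 0.598 (0.487 to 0.733) in bone. Lung epithelial markers summed to 75.6 CPM in sterol-high and 12.8 in sterol-low cells, and fibroblast and stroma markers to 11.6 and 104 CPM. Without the 46 cells that held at least 2 UMIs of other cell types' markers, the ratios were 4.39 for Hmgcs1, 2.72 for Fads2 and 0.255 for Abca1. The median UMIs before thinning were 2760 and 2648.5 per cell. Cells with 10 or more Cck UMIs made up 6.32% of sterol-high and 3.21% of sterol-low cells. Which part cell cycle genes, Cck or other cell types had in these ratios was not tested.

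Because the members went together, their promoters were searched for 4 motifs. RefSeq promoter sequences of build GRCm38.p6, 250 bases before to 50 after the start, were given for 26 of the 33 members. Fdps, Fdft1, Sqle, Stard4, Scd1, Scd2 and Fads1 had no entry. CCAAT, the NF-Y box, was found on either strand in 22 of the 26 genes (84.6%), against 41.1% of all 27025 genes in the table and 43.1% of the 4615 with a mean of at least 20 CPM. Of 46 such boxes, 42 lay before the start and 32 of these within 150 bases of it. GGGCGG, the GC box, was in 20 of the 26 (76.9%), against 72.7% of the 4615. TCACNCCAC, a sterol regulatory element, was in Hmgcs1 only, against 1.41% of the 4615, and TCACGTGA, an E-box that SREBP can bind, in none, against 2.69%. Matches of different motifs did not overlap in the members. A match is a description and not a site of binding, and no match says only that these letters are not in the window.

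The 250 bases before the start are shown for 5 genes that went with the score and 1, Acat2, that did so with no CCAAT in its window. They are Hmgcs1 (chr13:119690101-119690350, plus strand), Mvd (chr8:122443423-122443672, minus strand), Idi1 (chr13:8885356-8885605, plus strand), Msmo1 (chr8:64733579-64733828, minus strand), Insig1 (chr5:28071162-28071411, plus strand) and Acat2 (chr17:12960726-12960975, minus strand). Capitals mark CCAAT, its reverse complement ATTGG on the printed strand, the GC box GGGCGG, its reverse complement CCGCCC and, in Hmgcs1, the element TCACCCCAC. Sequences are from RefSeq, written 5′ to 3′ on the strand of the gene.
Hmgcs1: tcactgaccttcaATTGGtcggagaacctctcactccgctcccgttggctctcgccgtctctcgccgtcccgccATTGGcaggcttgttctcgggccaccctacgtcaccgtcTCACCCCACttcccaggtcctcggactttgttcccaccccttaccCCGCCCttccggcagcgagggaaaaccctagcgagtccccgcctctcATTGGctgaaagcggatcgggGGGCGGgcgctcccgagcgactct
Mvd: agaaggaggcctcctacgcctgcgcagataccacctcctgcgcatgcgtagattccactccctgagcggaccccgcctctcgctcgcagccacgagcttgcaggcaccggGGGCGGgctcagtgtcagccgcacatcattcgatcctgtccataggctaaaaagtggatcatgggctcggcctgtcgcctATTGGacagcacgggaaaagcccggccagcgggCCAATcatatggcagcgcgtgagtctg
Idi1: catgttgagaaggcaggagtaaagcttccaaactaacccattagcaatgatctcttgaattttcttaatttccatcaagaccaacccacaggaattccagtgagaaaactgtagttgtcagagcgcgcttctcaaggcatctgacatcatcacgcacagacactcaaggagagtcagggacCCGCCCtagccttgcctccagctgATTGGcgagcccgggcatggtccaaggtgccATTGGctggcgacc
Msmo1: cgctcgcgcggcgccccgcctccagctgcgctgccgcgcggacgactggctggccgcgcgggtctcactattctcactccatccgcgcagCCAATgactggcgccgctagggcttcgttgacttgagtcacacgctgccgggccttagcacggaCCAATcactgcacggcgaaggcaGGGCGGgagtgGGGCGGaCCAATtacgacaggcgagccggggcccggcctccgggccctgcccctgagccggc
Insig1: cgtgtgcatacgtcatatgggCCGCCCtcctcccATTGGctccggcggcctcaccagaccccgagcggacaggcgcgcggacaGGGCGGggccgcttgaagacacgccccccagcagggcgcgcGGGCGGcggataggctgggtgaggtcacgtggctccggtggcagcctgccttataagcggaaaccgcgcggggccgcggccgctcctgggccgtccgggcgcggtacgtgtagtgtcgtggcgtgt
Acat2: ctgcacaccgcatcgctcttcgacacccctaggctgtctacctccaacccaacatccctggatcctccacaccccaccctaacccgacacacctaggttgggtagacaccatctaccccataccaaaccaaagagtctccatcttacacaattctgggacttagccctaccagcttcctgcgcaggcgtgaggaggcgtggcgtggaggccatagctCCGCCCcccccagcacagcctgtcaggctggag

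Hmgcs1 has 3 CCAAT boxes in the printed window, on its reverse strand, with the sterol regulatory element starting 137 bases before the start. Mvd, Idi1 and Msmo1 each have CCAAT boxes within 100 bases of the start, at 60 and 27, 45 and 14, and 96 and 55 bases before it, and Msmo1 has a further box at 160. Insig1 has its only CCAAT box far upstream, 216 bases before the start, and Acat2 has a single GC box. Acaca, Fads2 and Elovl6 were the other members with no CCAAT in the window. Their ratios by sterol score were 1.02, 2.72 and 1.94, so members without the box lay both near 1 and well above it. The same held for members with the box: Ggps1, Srebf1 and Ebp had ratios of 0.915, 0.902 and 1.36, and Hmgcs1 one of 4.32.

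Between the hosts, Prf1-/- lung against WT lung, no member was past 1.5-fold. Of 27 members that reached 20 CPM, 0 were higher and 0 lower, against 0.226% higher and 0.626% lower over all genes tested. The 21 sterol genes summed to 1377 CPM in WT lung and 1479 CPM in Prf1-/- lung, a ratio of 1.07 (1.04 to 1.11), and the 10 fatty acid genes to 447 and 489 CPM, a ratio of 1.09 (1.03 to 1.16). The ratio was above 1 for 20 of the 27 members. Its interval lay above 1 for 5 of them and below 1 for 1, against 6.16% and 5.98% of all genes tested. The median log2 ratio of the members was 0.11, against 0.00 over all genes tested.

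All 8 mevalonate genes had ratios above 1, from 1.04 to 1.26, where 50.7% of all genes tested had a ratio above 1. Hmgcs1 had 65.2 CPM for WT lung, 77.6 for Prf1-/- lung and 74.6 for bone, the order used for the levels that follow, which gave a ratio of 1.19 (1.01 to 1.40) between the lungs. Fdps stood at 335, 347 and 330 CPM, with a ratio of 1.04 (0.962 to 1.11). The sterol genes were split, 5 of 9 above 1, with ratios from 0.926 for Fdft1 to 1.17 for Sc5d. Cyp51 stood at 149, 161 and 144 CPM and Ebp at 132, 138 and 149 CPM, and the intervals of the 3 groups overlapped for both genes.

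Insig1 was at 45.3, 56.3 and 56.9 CPM, a ratio of 1.24 (1.02 to 1.51) between the lungs. Srebf2 was at 37.8, 41.9 and 43.9 CPM, with ratios whose intervals included 1. Among the fatty acid genes, Fads2 stood at 21.2, 29.4 and 22.3 CPM, highest in Prf1-/- lung, with a ratio of 1.39 (1.05 to 1.84) between the lungs. Its neighbour Fads1 stood at 18.9, 25.4 and 26.2 CPM, a ratio of 1.34 (0.997 to 1.82), and it reached the mean of 20 CPM through its Prf1-/- lung level, as did Elovl6. Acaca went the other way, at 37.5, 28.3 and 37.7 CPM and a ratio of 0.756 (0.593 to 0.963). Abca1 went from 74.8 CPM for WT lung to 57.1 for Prf1-/- lung, a ratio of 0.764 (0.645 to 0.905). The sterol sum kept a ratio of 1.08 without cells that carried markers of other types, and 1.10 in cells with 0 Cck UMIs, but was 1.02 in cells with at least 2000 genes.

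**Figure D2:**
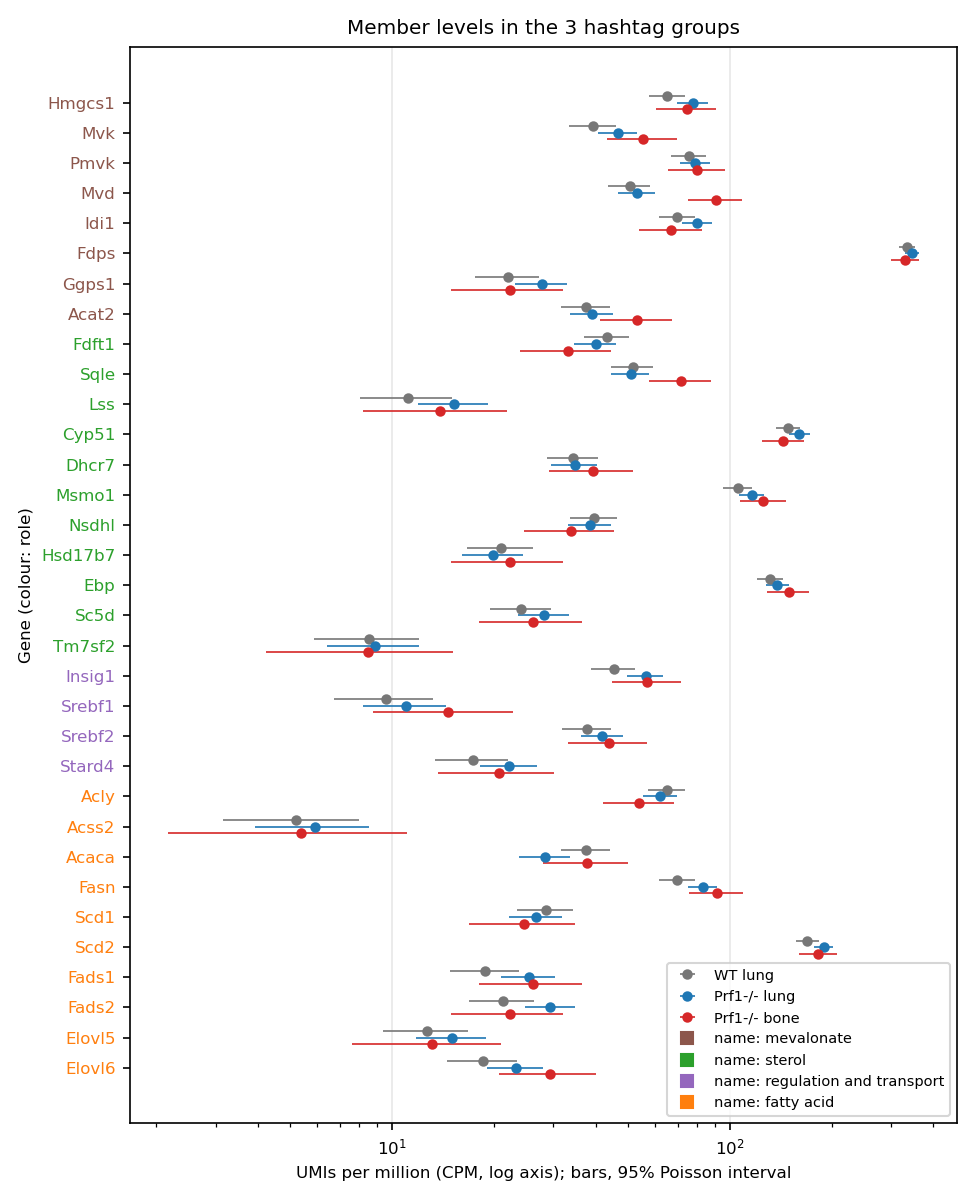
CPM of each member (log axis) in the WT lung, the Prf1-/- lung and the Prf1-/- bone cells, with 95% Poisson intervals. Names are coloured by role. Mvd in bone, at 90.8 CPM, lies above the intervals of both lungs.

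Between the sites, Prf1-/- bone against Prf1-/- lung, 1 of the 28 members that reached 20 CPM was higher and 0 were lower, against 2.30% higher and 4.72% lower over all genes tested. That gene was Mvd, at 50.4, 53.1 and 90.8 CPM, 1.71-fold higher in bone than in Prf1-/- lung (1.36 to 2.14). Bone stood above both lungs, whose intervals overlapped. The ratio was 1.76 in cells with 0 Cck UMIs, but it was under the threshold, at 1.48, where the largest hashtag had to be 5 times the next, and at 1.39 in cells thinned to 2000 UMIs. Mvd also overlaps a lncRNA gene, Gm51557, by 3213 bases in the RefSeq annotation, and reads of the 2 cannot be told apart without the counting strand.

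Sqle, the squalene epoxidase, stood at 51.5, 50.8 and 71.6 CPM, a ratio of 1.41 (1.10 to 1.80) between bone and Prf1-/- lung. Acat2 stood at 37.5, 39.1 and 53.1 CPM, a ratio of 1.36 (1.01 to 1.80). Both were level in the lungs and above them in bone, short of 1.5-fold. The intervals of both sums included 1: 1518 CPM for the sterol genes in bone gave a ratio of 1.03 (0.976 to 1.08), and 486 CPM for the fatty acid genes a ratio of 0.996 (0.910 to 1.09). The ratio was above 1 for 15 of 28 members, where 47.1% of all genes tested were above 1, and its interval lay above 1 for 3, against 10.2%. The median log2 ratio was 0.02 for the members and -0.02 over all genes tested. Abca1, at 31.6 CPM in bone, was lower, with a ratio of 0.552 (0.388 to 0.769), and was the only one past 1.5-fold of the 12 further sterol genes that reached 20 CPM.

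Against WT lung, which shares the bone group with the comparison above, 2 of 27 members were higher in bone and 0 lower, against 2.14% higher and 5.34% lower over all genes tested. They were Mvd, 1.80-fold higher (1.42 to 2.27), and Elovl6, the elongase of palmitate, at 18.6, 23.3 and 29.2 CPM. Elovl6 reached the mean of 20 CPM through its bone level. It was 1.57-fold higher than in WT lung (1.03 to 2.36), and its ratio was 1.21 under the stricter hashtag rule, 0.842 in cells with 0 G2/M UMIs and 2.25 in cells with 3 or more. Fasn stood at 69.8, 82.9 and 91.6 CPM, a ratio of 1.31 (1.05 to 1.63), and Mvk at 39.3, 46.5 and 55.4 CPM, a ratio of 1.41 (1.05 to 1.88). For both, neighbouring groups in that order had overlapping intervals. The ratio was above 1 for 20 of the 27 members and its interval above 1 for 6, against 46.8% and 9.45% of all genes tested. Abca1 was 0.422 of the WT lung level (0.297 to 0.587).

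The members not yet given stood close together in the 3 groups. In the same order of WT lung, Prf1-/- lung and bone, Pmvk stood at 75.5, 78.7 and 80.0 CPM, Idi1 at 69.8, 80.0 and 66.9 and Ggps1 at 21.99, 27.7 and 22.3. Msmo1 stood at 105, 116 and 125 CPM, Fdft1 at 43.2, 40.0 and 33.1, Dhcr7 at 34.4, 34.7 and 39.2, Nsdhl at 39.6, 38.5 and 33.9, Sc5d at 24.1, 28.1 and 26.2 and Hsd17b7 at 20.95, 19.9 and 22.3. Scd2 stood at 169, 189 and 182 CPM, Scd1 at 28.5, 26.7 and 24.6 and Acly at 64.9, 62.2 and 53.9. In each comparison of bone the intervals of these members' ratios included 1. Under 20 CPM in WT lung were also Lss, at 11.1, 15.2 and 13.9 CPM, Stard4, at 17.3, 22.2 and 20.8, Tm7sf2, at 8.54, 8.89 and 8.46, Srebf1, at 9.57, 11 and 14.6, Elovl5, at 12.7, 15.02 and 13.1, and Acss2, at 5.17, 5.92 and 5.39, and their intervals were wide.

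**Figure D3:**
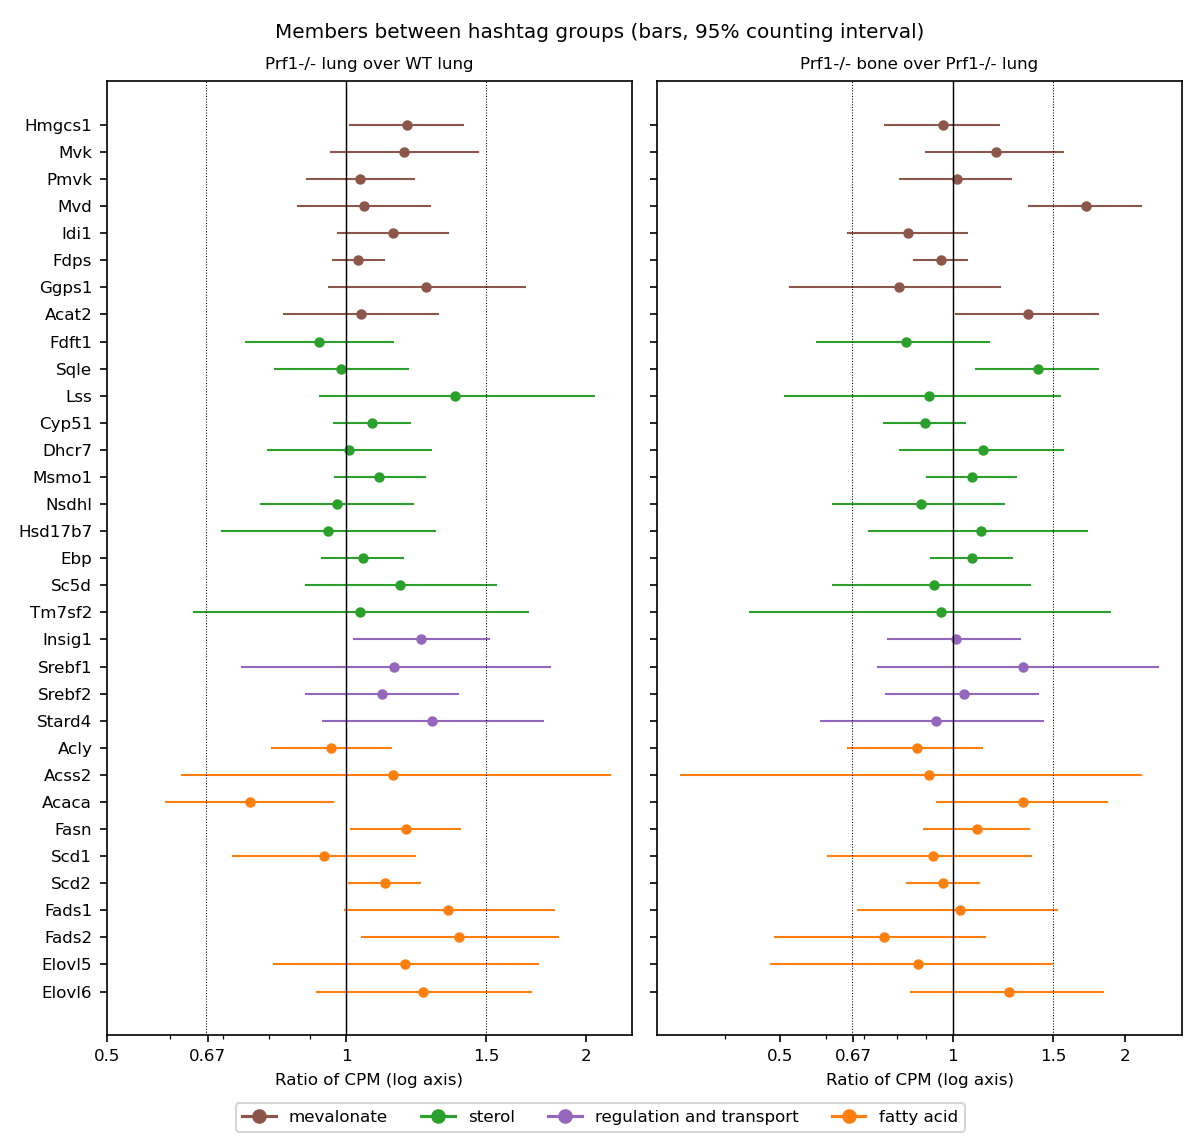
Ratio of CPM for each member between Prf1-/- lung and WT lung (left) and between Prf1-/- bone and Prf1-/- lung (right), on log axes, with 95% counting intervals. Dotted lines mark 1.5-fold in either direction. No member on the left and 1, Mvd at 1.71, on the right lies past them among those with at least 20 CPM.

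The sums for bone and lung came apart when cells were split by their G2/M UMIs. Among cells thinned to 2000 UMIs, those with 3 or more UMIs of 15 G2 and M phase genes were set against those with 0, a comparison added after the data had been seen. In bone the 21 sterol genes summed to 1637 CPM in 124 cells with 0 G2/M UMIs and to 1273 CPM in 128 cells with 3 or more, a ratio of 0.778 (0.670 to 0.902). In Prf1-/- lung the order was the other way, 1379 CPM in 634 cells and 1557 CPM in 386 cells, a ratio of 1.13 (1.05 to 1.22). In WT lung it was 1272 CPM in 479 cells and 1496 CPM in 341 cells, a ratio of 1.18 (1.08 to 1.28). The difference between the groups was not tested. Cells outside the hashtag matrix had a ratio of 1.04 (0.998 to 1.08), and cells with 10 or more Cck UMIs one of 0.852 (0.747 to 0.972).

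Bone stood at 1.19 times Prf1-/- lung (1.06 to 1.32) among cells with 0 G2/M UMIs and at 0.818 times (0.721 to 0.925) among those with 3 or more. Restricted to cells with 0 Cck UMIs, the values were 1.16 (0.999 to 1.34), over 69 bone cells, and 0.773 (0.661 to 0.901), over 82 bone cells. Other lists differed in the same cells: among those with 0 G2/M UMIs the S phase genes of bone stood at 1.51 times Prf1-/- lung (1.26 to 1.80) and the melanoma markers at 0.832 times (0.799 to 0.865). Among those with 3 or more, the G2 and M phase genes stood at 0.845 times (0.781 to 0.914), the S phase genes at 0.974 times (0.867 to 1.09) and the melanoma markers at 0.794 times (0.758 to 0.831). Their part in the sterol values was not tested. The sterol values moved with the setting. Without thinning the ratio of bone to Prf1-/- lung among cells with 0 G2/M UMIs was 1.38. Over all cells with at least 2000 genes that ratio was 0.856. Both settings also change which cells are compared, and the cause was not tested. Over all cells together, 2 members were higher in those with 3 or more G2/M UMIs, of 26 that reached 20 CPM, and 0 were lower, where 7.68% of all genes tested were higher and 4.07% lower. They were Acat2, at 55.0 against 32.6 CPM and 1.69-fold (1.41 to 2.02), and Fads2, at 31.0 against 18.6 CPM and 1.67-fold (1.31 to 2.12), which reached 20 CPM through the cells where it was high. Fdps had a ratio of 1.21 (1.14 to 1.29), and Hsd17b7, a sterol reductase under 20 CPM, one of 0.731 (0.557 to 0.956).

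**Figure D4:**
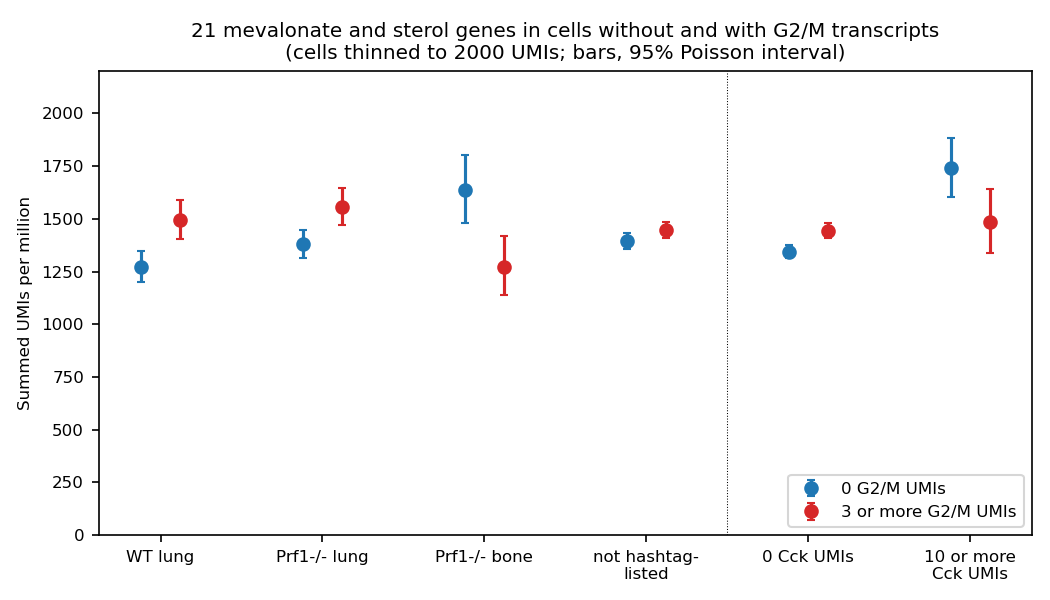
Summed level of the 21 mevalonate and sterol genes in cells with 0 (blue) and with 3 or more (red) G2/M UMIs, in CPM with 95% Poisson intervals, in cells thinned to 2000 UMIs. Red lies above blue in both lungs and below it in bone, where the values were 1273 and 1637 CPM.

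Cck, the gene of the gut and brain hormone cholecystokinin, had 10 or more UMIs in 461 of the filtered cells, 1 to 9 in 1083 and 0 in 8100. The first class made up 25.2% of bone cells, 1.96% of WT lung and 2.50% of Prf1-/- lung. It is a range of 1 gene's count and not a cell type: 41 cells held 10 or 11 UMIs and 65 held 8 or 9. Over all cells Cck itself also went with the sterol score, at 907 CPM in sterol-high and 448 in sterol-low cells. Within the lungs its ratio was 1.20 (0.941 to 1.54) for WT and 1.32 (1.07 to 1.63) for Prf1-/-. It was 1.75 (1.57 to 1.96) in bone and 2.12 (1.97 to 2.28) in unlisted cells. In cells with 10 or more Cck UMIs the sterol genes summed to 1698 CPM, against 1415 CPM in cells with 0, a ratio of 1.20 (1.152 to 1.2504). The fatty acid genes summed to 542 and 470 CPM, a ratio of 1.15 (1.07 to 1.24).

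Of 26 members that reached 20 CPM, 2 were higher and 1 lower in the Cck-high cells, against 1.97% and 3.93% of all genes tested. The interval lay above 1 for 11 of the 26, against 10.7% of all genes tested. The median log2 ratio was 0.24 for the members and -0.03 over all genes tested. Mvd stood at 104 CPM against 54.3, 1.92-fold higher (1.61 to 2.28). Within the sources its ratio was 2.09 for WT lung, 1.79 for Prf1-/- lung, 1.29 for bone and 1.82 for unlisted cells. These rest on 8, 12, 39 and 81 Mvd UMIs in Cck-high cells, and within each lung the interval included 1. Acat2 stood at 67.9 CPM against 42.8, 1.59-fold higher (1.28 to 1.95). But its ratio was 0.957 within WT lung, over 3 UMIs in Cck-high cells, and 0.936 in cells with at least 2000 genes. In the other sources Acat2 was higher in Cck-high cells, over 7, 22 and 64 UMIs there. It stood at 53.7 against 37.9 CPM within Prf1-/- lung, 65.8 against 47.6 within bone and 79.2 against 45.0 within unlisted cells. Only within unlisted cells did the intervals of the levels not overlap. Ggps1, of the geranylgeranyl branch, was lower, at 15.1 CPM against 25.5 and a ratio of 0.592 (0.368 to 0.906). It reached the mean of 20 CPM through the Cck-0 cells alone and had 22 UMIs in Cck-high cells, of which 1 came from WT lung, 3 from Prf1-/- lung and 4 from bone, too few to give a ratio by source. Its ratio was 0.850 when 5 Cck UMIs were enough.

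All 8 sterol genes that reached 20 CPM had ratios above 1, from 1.13 to 1.46, where 44.6% of all genes tested did, and none passed 1.5-fold. Msmo1 stood at 153 CPM against 105, a ratio of 1.46 (1.27 to 1.67), Dhcr7 at 48.7 against 35.2, a ratio of 1.38 (1.07 to 1.77), and Sqle at 65.2 against 49.5, a ratio of 1.32 (1.06 to 1.63). Insig1 had a ratio of 1.29 (1.03 to 1.60) and Srebf2 0.839 (0.618 to 1.12). Of the fatty acid genes, Fasn, at 101 against 80.1 CPM, had a ratio of 1.26 (1.06 to 1.49), Scd2, at 205 against 173 CPM, 1.19 (1.05 to 1.33), and Scd1, at 22.6 against 30.1 CPM, 0.751 (0.513 to 1.07). The 2 stearoyl-CoA desaturases therefore lay on either side of 1, and the interval of Scd1 included 1.

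Within each source the sterol sum of Cck-high cells was 1.23 (1.03 to 1.46) times that of Cck-0 cells for WT lung, 1.13 (0.983 to 1.30) for Prf1-/- lung, 1.20 (1.09 to 1.33) for bone and 1.20 (1.14 to 1.27) for unlisted cells. The Cck-high cells of a source were few, and many genes passed 1.5-fold there: of all genes tested 19.2% were higher and 18.3% lower within WT lung, 15% and 15.8% within Prf1-/- lung, 11.8% and 9.43% within bone and 3.01% and 6.20% within unlisted cells. Cells with 1 to 9 Cck UMIs had a sterol sum 1.07 times (1.04 to 1.11) that of cells with 0, and no member was past 1.5-fold there, against 0.123% higher and 0.298% lower of all genes tested. Of the further sterol genes, Abca1, at 32.9 against 56.9 CPM, and Soat1, which esterifies cholesterol for storage, at 19.9 against 32.1 CPM, were lower, with ratios of 0.579 (0.424 to 0.772) and 0.620 (0.412 to 0.898), Soat1 reaching the mean of 20 CPM through Cck-0 cells alone. Scarb1, a receptor for high-density lipoprotein, was 1.52-fold higher (1.09 to 2.07) and reached that mean through Cck-high cells. Fabp5, a fatty acid binding protein, stood at 497 against 744 CPM, a ratio of 0.668 (0.619 to 0.719).

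The sterol UMIs were also spread more evenly over Cck-high cells. At 2000 UMIs per cell the sterol genes gave a mean of 3.36 UMIs in 412 Cck-high cells and 2.84 in 6732 Cck-0 cells, and 7.04% and 16.2% of cells had none. The variance over the mean was 1.64 and 2.27. In bone, where the mean was 2.95, the variance over the mean was 1.86 and 10.4% of cells had none, against 2.34 and 16.6% in Prf1-/- lung at a mean of 2.94 and 2.33 and 19.5% in WT lung at a mean of 2.72. The Cck-high cells had a G2 and M phase sum of 1104 CPM against 1486 in Cck-0 cells, and lung epithelial markers of 9.60 against 51.0 CPM, and the part of these in the ratios was not tested.

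**Figure D5:**
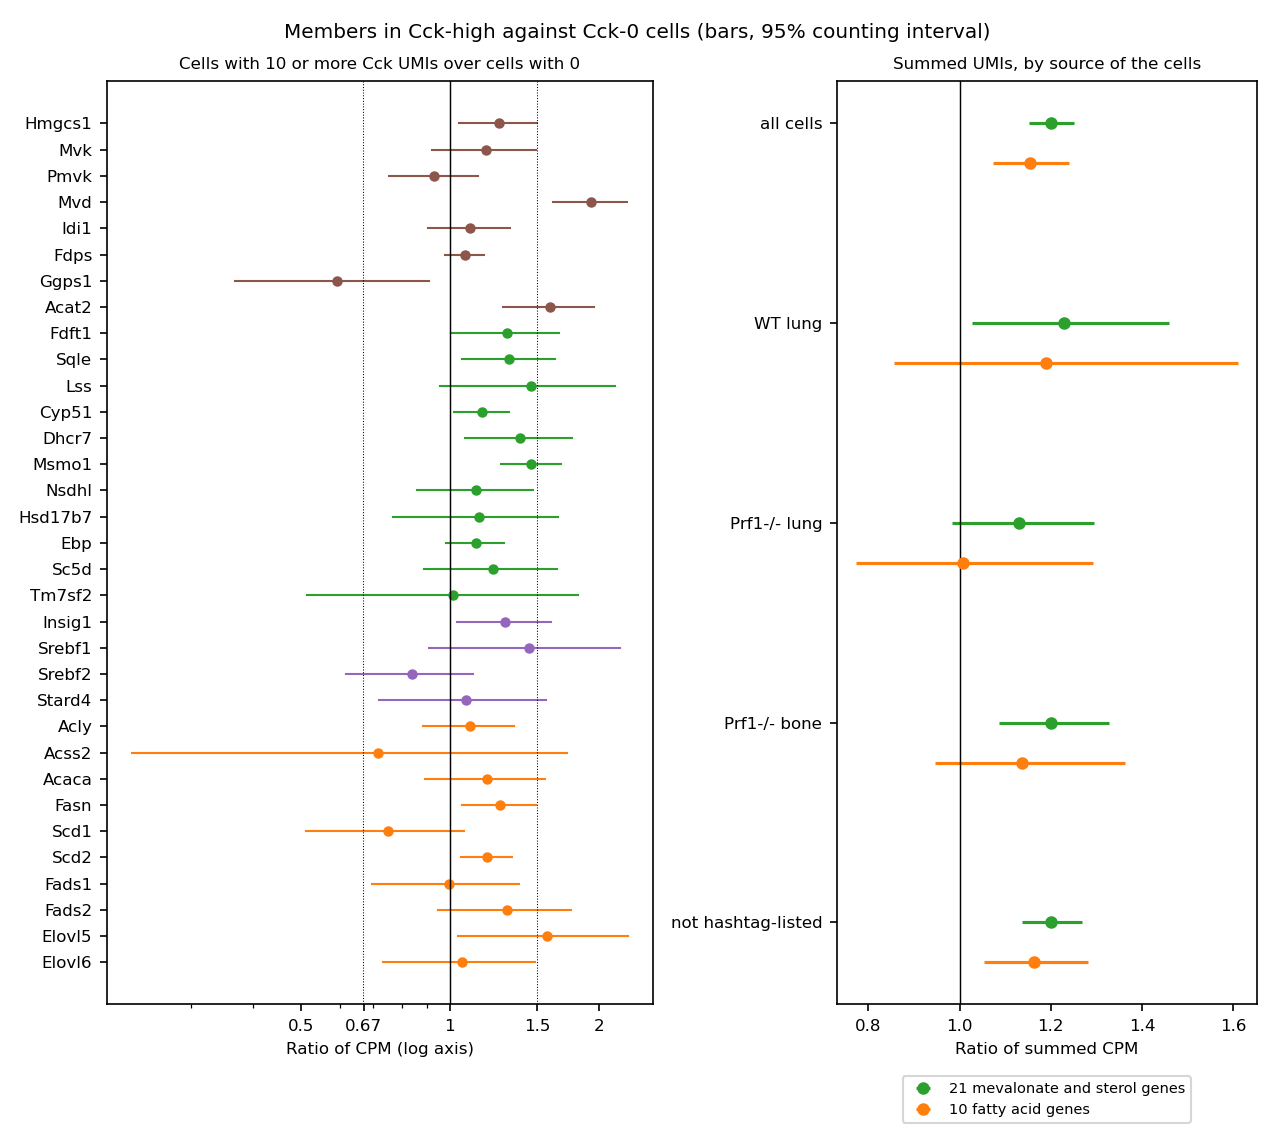
Left, ratio of CPM for each member between cells with 10 or more Cck UMIs and cells with 0 (log axis, dotted lines at 1.5-fold). Right, the same ratio for the summed 21 sterol and 10 fatty acid genes over all cells and within each source, with 95% counting intervals throughout. Mvd, at 1.92, lies farthest to the right, and the summed sterol ratio is above 1 in every source, with an interval that includes 1 in Prf1-/- lung.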

How the data were processed

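The deposited values are raw UMI counts, in a gene matrix of 15961 barcodes and a hashtag matrix of 6208, with 4204 in both. Cell Ranger 6.1.2, Seurat 4.3.0 and build mm10 come from the submitters' processing notes, while Cell Ranger 6.0.0 is written in the file header. The submitters' own cell annotation was not used here, so the groups were rebuilt and may not match theirs.

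Barcodes with at least 1000 genes and at most 15% mitochondrial UMIs were kept and given the largest hashtag where it was at least 2 times the next. No doublet caller was run. Cells with 2 hashtags at like counts fail that rule, which applies to listed barcodes only. The pooled sterol score and the Cck classes were drawn from all filtered barcodes, with the 6270 unlisted and 242 ambiguous ones left in. The ambiguous cells had a median of 3695.5 UMIs and held 20 of the 461 Cck-high cells. Counts were summed per group and divided by the total, to CPM, and log2 ratios were taken without a pseudocount. Levels have exact Poisson intervals and ratios exact conditional binomial intervals at 95%. Cells for the score were thinned to 2000 UMIs with a fixed seed, leaving out 1548 shallower cells of 9644. Ties in the score were broken at random. Alternatives covered the filters, hashtag rule, fold, depth, Cck classes and score, and cells of other types. The steps were tested on simulated counts. Python 3.11.15, numpy 2.4.6, scipy 1.17.1 and pandas 2.3.3 were used.

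The members and gene lists were chosen with earlier results of these data known. All members could be named. Of 2 lists of 24 further pathway genes, those past 1.5-fold and up to 4 with the most UMIs could be. So could the 10 non-members with the highest ratio by sterol score at a mean of at least 50 CPM. S100a6, Ahnak, Klf2 and Nupr1, at the low end by the same mean, were named outside this rule.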

Additional observations from a re-analysis of the deposited data

Results flagged for a closer look

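The 21 mevalonate and sterol genes had a ratio between cells with 3 or more and with 0 G2/M UMIs that lay above 1 in 1 group and below 1 in another under the same contrast. The ratio was 1.18 in WT lung and 0.778 in Prf1-/- bone. It was 1.13 in Prf1-/- lung, against the same 0.778 in bone. The difference was not tested, since each group was a single hashtag group. All 3 intervals left out 1, at 1.08 to 1.28, 1.05 to 1.22 and 0.670 to 0.902.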

How the results depend on the processing

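No paired analysis was possible because the 3 groups came from 1 pooled run and carry no replicate numbers. Of the recomputed sums and member counts 227 kept their value within error and 58 moved, and of the other recomputed values 3148 kept theirs, 331 moved and 6 reversed. The cause of these moves was not tested. In order, values are the sterol sum, the fatty acid sum and the members past the fold, as far as each moved. Prf1-/- over WT lung: 1.02 and 4 at 2000 genes or more; 1.03 and 3 in cells with 3 or more G2/M UMIs; a fatty acid sum of 1.18 and 2 members thinned; 2 members with the hashtag rule at 5 and 4 at the lower fold alternative. Bone over Prf1-/- lung: 0.856, 0.746 and 9 at 2000 genes; 1.38, 1.27 and 9 with 0 G2/M UMIs; 0.875, 0.875 and 5 with 3 or more; 1.09 and 2 with cells weighted equally; 6 at the lower fold and 0 at 2-fold. Bone over WT lung: 0.874, 0.802 and 8 at 2000 genes; 1.45, 1.34 and 12 with 0 G2/M UMIs, where Elovl6 reversed to 0.842; 0.898, 0.949 and 6 with 3 or more; 1.18 and 4 weighted equally; 1.04 with the hashtag rule at 5; 9 at the lower fold, 0 at 2-fold and 1 at a mean of 50 CPM. Cck-high over Cck-0: 1.10 at 2000 genes, where Acat2 reversed to 0.936 and Elovl5 to 0.951; 1.42, 1.34 and 12 with 0 G2/M UMIs; 1.07 and 0.998 with 3 or more, where Elovl5 reversed to 0.722; 1.253 weighted equally; 1.07, 1.01 and 0 for 1 to 9 Cck UMIs; 1 from 5 Cck UMIs; 12 at the lower fold and 0 at 2-fold. Within WT lung 9 members were past the fold and Acat2, with 3 UMIs in Cck-high cells, reversed to 0.957. Within Prf1-/- lung the values were 1.13, 1.01 and 7, in bone 8 and in unlisted cells 6. By sterol score, the fatty acid sum was 1.54 for the upper against the lower 50% of cells and 2.22 with 0 G2/M UMIs, 15 members were past the fold with the fatty acid score, and Acss2 reversed to 0.600 at 4000 UMIs. TCACCCCAC in place of TCACNCCAC was found in the same 1 member. Depth limits the values of Lss, Tm7sf2, Srebf1, Acss2 and Elovl5 most, and subsets of bone cells are small. The values above for bone over Prf1-/- lung by G2/M UMIs are from cells that were not thinned. In thinned cells with 0 G2/M UMIs, 5 of 27 members were higher in bone than in Prf1-/- lung and 2 lower. Of all genes tested 11.5% were higher and 13.3% lower there at 1.5-fold, so member counts in such subsets are not results. The member counts in this paragraph have no share over all genes beside them and show only how far the settings move them.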

Other observations

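Genes outside both pathways also went with the sterol score. Among the 10 non-members with the highest ratio between sterol-high and sterol-low cells were Tmem97, a sterol-responsive membrane protein, at 2.20 (1.87 to 2.58), and Erg28, a scaffold of sterol synthesis known from yeast, at 2.05 (1.77 to 2.38). They also held Cck, at 2.02 (1.91 to 2.14) over all cells but less within each lung. Beside it were the glutathione transferases Gsta2, at 1.80 (1.54 to 2.12), and Gsta4, at 1.73 (1.62 to 1.86). Dnaic2, a dynein intermediate chain, stood at 1.77, Pfkl, a phosphofructokinase, at 1.74 and Sdf2l1, an endoplasmic reticulum protein, at 1.65.

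Of the cells in each class, 31.1% of those with 10 or more Cck UMIs were sterol-high and 15.8% sterol-low, against 24.4% and 25.8% of those with 0. Of WT lung cells 23.2% were sterol-high and 29.0% sterol-low, of Prf1-/- lung cells 26.4% and 26.8%, and of bone cells 23.0% and 18.6%.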
